A study of Mus musculus with 10 samples.

Results

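The nuclear genes of ATP synthase and cytochrome *c* oxidase were followed in single *Grem1*-lineage and *Lepr*-lineage skeletal cells. Membership in the set goes by symbol, and the choice of the set was made with earlier results of these data known. It holds every listed gene starting with Atp5 or with Cox4 to Cox8, together with *Cyc1* and *Cycs*, while symbols containing -ps were left out. It counts 37 of the 29183 genes listed for both lineages: 6 genes of the F1 part of ATP synthase, 9 of its Fo part, 17 of cytochrome *c* oxidase, *Cyc1* and *Cycs*, and 3 others (*Cox7a2l*, *Atp5s* and *Atp5sl*). The values are counts of unique molecular identifiers (UMIs), which mark single captured transcripts, in cells sorted 1 per well into 96-well plates.

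All mice were C57BL/6 and carried a TdTomato reporter. *Grem1-TdT* mice, in which an inducible Cre marks cells that express *Grem1* during tamoxifen, received tamoxifen chow for 2 weeks from an age of 5 to 6 weeks, and live TdTomato-positive cells were sorted from excised articular cartilage (AC) and growth plate (GP) of the hind limbs. *Lepr-TdT* mice of matched age carry a constitutive *Lepr*-driven Cre, so their TdTomato marks any cell with present or past *Lepr* expression, and cells were sorted from whole hind limb bones as live, CD45-, Ter119-, CD31- and TdTomato-positive. The study states that AC and GP cells were sorted separately, that single cells were placed on plates at random, and that cells of several individual samples were combined. Which tissue or tissues a *Grem1-TdT* plate holds, and from how many mice, is not given plate by plate, so plates may share mice and every p-value below measures the spread between plates, which may be technical. The tissue of origin and the sort differ between the lineages, and their parts in a difference cannot be told apart.

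A cell was kept if at least 350 genes were detected in it, which left 684 *Grem1*-lineage cells on 8 plates and 160 *Lepr*-lineage cells on 2 plates. This minimum ran over the genes listed for each lineage, 29183 and 50508, and over the shared genes alone only 77 *Lepr*-lineage cells reached it. With those 77 cells, 7 genes of the set were called between the lineages, *Cox4i2* at -3.44 (edgeR quasi-likelihood test). Over the shared genes a *Grem1*-lineage plate held 133289 to 179071 UMIs and the *Lepr*-lineage plates 64310 and 59981. *Grem1*-lineage cells were split by whether the UMIs of *Clu*, *Cilp* and *1500015O10Rik* together exceeded those of *Cnmd*. The 414 cells in which they did are called articular-like and the other 270, in which they did not, *Cnmd*-rich. In these groups 6 and 8 cells held fewer than 10 UMIs of the splitting genes, and 8 and 17 lay within 2 UMIs of the split. The summed level of 7 articular chondrocyte markers was 4.07 to 5.27% of UMIs per plate in articular-like cells and 0.388 to 0.688% in *Cnmd*-rich cells, and *Cnmd* and *Epyc* together made 0.260 to 0.714% and 2.39 to 3.54%. These values partly repeat the split, since 4 of the 9 markers made it. Only *Cnmd* and *Epyc* stand for GP chondrocytes among the genes listed, and thus the second group is named by its leading gene. In *Lepr*-lineage plates the 6 marrow stromal markers summed to 2.73 and 3.79% of UMIs, against 0.0093 to 0.0202% in *Grem1*-lineage plates. Myeloid markers summed to 2.08 and 2.99% in *Lepr*-lineage plates despite the CD45- sort, and to 0.0015 to 0.367% in *Grem1*-lineage plates. The same 92 of 96 well barcodes occurred in both lineages, as they would in a fixed barcode set for plates.

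Cytochrome *c* oxidase hands electrons from cytochrome *c* to oxygen and pumps protons out of the mitochondrial matrix, and ATP synthase lets the protons return through the ring of its Fo part to drive ATP synthesis in F1. Several oxidase subunits exist as paired isoforms from separate genes, among them *Cox4i1* and *Cox4i2*, of which the second is the oxygen-sensitive form best known from lung, and the muscle forms *Cox6a2*, *Cox7a1* and *Cox8b*. Chondrocytes live in a tissue with few or no vessels and little oxygen and make much of their ATP by glycolysis.

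The c subunit, the protein of the proton-carrying ring, is encoded by *Atp5g1*, *Atp5g2* and *Atp5g3*, and the choice among them is one of the patterns described below. In the GENCODE transcripts the last 75 codons of the 3 genes encode the same residue at all 75 positions, while the leading parts, of 61, 71 and 66 codons in that order, hold the import sequence that is removed. The end of each coding sequence, the last 90 bases before the stop codon, is shown in the direction of the transcript to make plain how the genes can be told apart in RNA: capitals mark the 24 positions at which the 3 sequences are not all alike. All 3 lie in coding sequence within 1 exon on the minus strand of GRCm38, at chr11:96073107-96073196 for *Atp5g1*, chr15:102663017-102663106 for *Atp5g2* and chr2:73908596-73908685 for *Atp5g3*.
Atp5g1: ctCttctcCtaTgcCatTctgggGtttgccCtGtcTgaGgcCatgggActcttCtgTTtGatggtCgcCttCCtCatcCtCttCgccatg
Atp5g2: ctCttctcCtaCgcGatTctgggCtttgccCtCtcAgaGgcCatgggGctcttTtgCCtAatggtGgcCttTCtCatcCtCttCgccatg
Atp5g3: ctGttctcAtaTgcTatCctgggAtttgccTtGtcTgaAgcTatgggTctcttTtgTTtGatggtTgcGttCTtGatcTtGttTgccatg
Over the 75 shared codons, *Atp5g1* and *Atp5g2* were identical at 84.9% of bases, *Atp5g1* and *Atp5g3* at 80.0%, and *Atp5g2* and *Atp5g3* at 78.7%. The longest identical run between any pair of their transcripts was 21 bases, shorter than the 58 bases of the transcript read.

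The summed share of the 37 genes was compared over the UMIs of the shared genes, which are a part of the transcriptome, and the order of the lineages depended on the denominator. Of these UMIs the set took 1.17% in the lowest, 1.43% in the median and 2.05% in the highest *Grem1*-lineage plate, with a mean of 1.47 ± 0.301% (SD, n = 8), and 1.41 and 1.61% in the *Lepr*-lineage plates. With this denominator both *Lepr*-lineage values lay inside the *Grem1*-lineage range, in which plate 1 was highest. The share has the most abundant transcripts in its denominator, and with the 20 most abundant genes left out it was 2.07 ± 0.328% (SD, n = 8) against 1.54 and 1.73%. The difference between the means thus changed sign, and 1 *Lepr*-lineage plate lay below all *Grem1*-lineage plates (lowest 1.72%). These 20 genes were ranked by mean level over all plates, 8 of them *Grem1*-lineage and 2 *Lepr*-lineage. Leaving them out shrank the *Grem1*-lineage denominators more: plate 1 fell from 143649 to 108243 UMIs, and *Lepr*-lineage plate 1 from 64310 to 58720. Over all 50508 genes listed for *Lepr*-lineage cells, of whose UMIs the shared genes hold 40.9%, the same genes made 0.617%, for which *Grem1*-lineage cells have no counterpart here.

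By complex, the F1 genes summed to 0.302 ± 0.0549% (SD, n = 8) of UMIs in *Grem1*-lineage plates and to 0.303 and 0.383% in *Lepr*-lineage plates. Fo genes summed to 0.380 ± 0.0902% against 0.390 and 0.477%, and the oxidase genes to 0.723 ± 0.154% against 0.661 and 0.692%. All 6 of these *Lepr*-lineage values lay within the range of the *Grem1*-lineage plates. Against *Grem1*-lineage plates 5 to 9 alone, both Fo values lay above all plates (highest 0.379%). So did the F1 value of *Lepr*-lineage plate 2 (0.383%, highest 0.311%). The F1 value of *Lepr*-lineage plate 1 and both oxidase values stayed inside the range of plates 5 to 9. No kept cell was without a UMI of the set. The median cell carried 18 such UMIs from 12 genes in the *Grem1* lineage and 8 from 6 genes in the *Lepr* lineage, where the median depth was 1472.5 and 505 UMIs.

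Among *Grem1*-lineage cells the share was higher in *Cnmd*-rich than in articular-like cells on 8 of 8 plates. Articular-like sums ranged from 1.03 to 1.76% with a mean of 1.32 ± 0.231% (SD, n = 8), and *Cnmd*-rich sums from 1.24 to 2.28% with a mean of 1.60 ± 0.365%. The ranges overlapped between plates, while within a plate the *Cnmd*-rich cells exceeded their partners by 0.282 ± 0.184 percentage points (0.131 to 0.608). F1 genes made 0.245% of UMIs in articular-like and 0.350% in *Cnmd*-rich cells, Fo genes 0.327 and 0.422%, and oxidase genes 0.677 and 0.758% (means of 8 plates). With the 20 most abundant genes left out, the *Cnmd*-rich cells were higher on only 5 of 8 plates, with means of 2.05 and 2.12%. Here too the denominators shrank unequally, on plate 1 from 63641 to 42891 UMIs in articular-like and from 80008 to 64446 in *Cnmd*-rich cells.

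**Figure D1:**
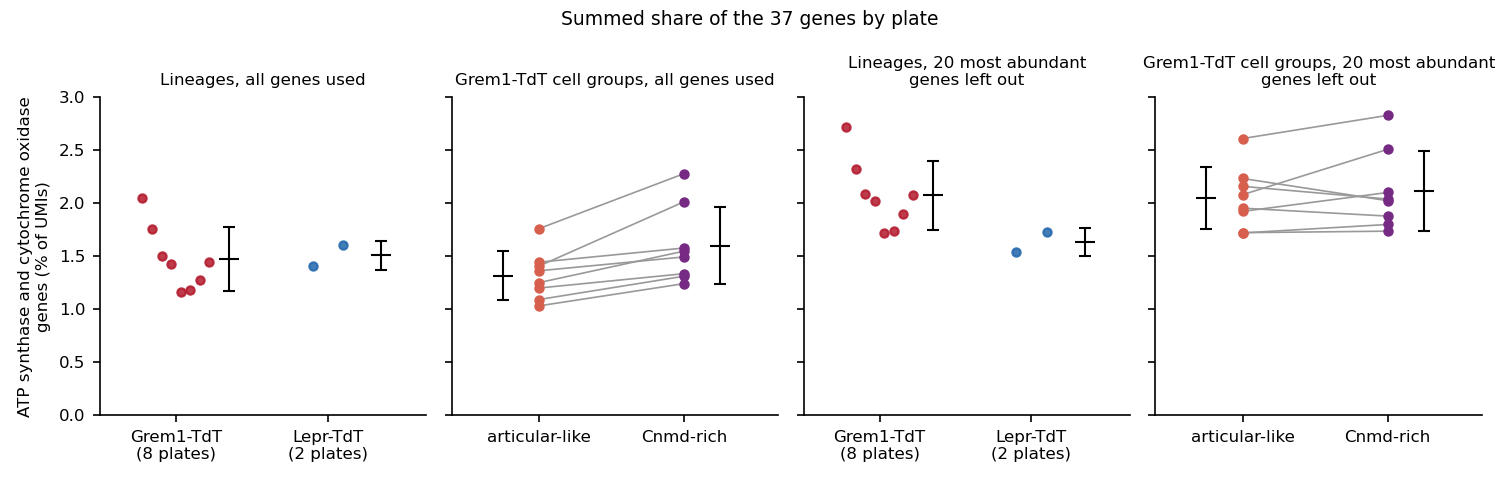
Summed share of the 37 genes as a percentage of UMIs (vertical axis) for each plate, by lineage and by *Grem1*-lineage cell group, with all genes used (left pair of panels) and with the 20 most abundant genes left out of the denominator (right pair). Points are plates, horizontal marks with bars are the mean ± SD, and lines join the cell groups of 1 plate. All lines rise in the second panel, from a mean of 1.32 to 1.60%, whereas in the last panel 5 of 8 do.

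Single genes were compared between the lineages with UMIs summed per plate. Levels are given as CPM, UMIs scaled to a common plate total with TMM factors, which sets plates so that most genes are alike, and a negative log2 fold change means lower in *Lepr*-lineage plates. Of the 37 genes, 29 had enough UMIs to be tested. At an adjusted p of at most 0.05, 6 were called (edgeR quasi-likelihood test), all lower in the *Lepr* lineage, where 29.0% of the 2944 genes tested were called and 16.8% were called lower. The number called in the set is near this background and is no result about the set as such. The median log2 fold change was -0.31 over the 29 genes and -0.11 over all genes tested. Over the set it was -0.49 against *Grem1*-lineage plates 1, 2 and 4 alone (all genes -0.01). Against plates 5 to 9 alone it was -0.16 (all genes -0.06).

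*Cox4i2* differed most. It lies at chr2:152754173-152765037 (plus strand) and encodes the second isoform of subunit IV, a regulatory subunit of the oxidase. Its level in *Grem1*-lineage plates was 532, 752 and 1050 CPM (lowest, median and highest), with a mean of 770 ± 180 CPM (SD, n = 8), and 92.9 and 14.0 CPM in the *Lepr*-lineage plates. All 8 *Grem1*-lineage plates lay above both others, and the log2 fold change was -3.80 (SE 0.50, adjusted p = 3.79e-05). These levels rest on 783 UMIs in the *Grem1* lineage and 8 in the *Lepr* lineage. The call held for articular-like cells alone (-3.80) and for *Cnmd*-rich cells alone (-3.51), and each *Lepr*-lineage plate alone gave -3.09 (plate 1) and -5.77 (plate 2), where a lone plate is assumed to vary like the *Grem1*-lineage plates.

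A *Cox4i2* UMI was found in 319 of 684 *Grem1*-lineage cells (46.6%, 95% Clopper-Pearson interval 42.8 to 50.5) and in 4 of 160 *Lepr*-lineage cells (2.50%, 0.685 to 6.28). After cells were brought to the same depth of 529 UMIs by random thinning, 22.7% of 682 and 3.90% of 77 cells still held one. No cell type that is sure to lack *Cox4i2* was sorted, so the share that free RNA would give is not known. Of the 8 *Lepr*-lineage UMIs, 6 came from 2 cells of plate 1 with few marrow stromal UMIs (0.322 and 0.785%). One of these cells had 4.84% of its UMIs in articular chondrocyte markers and the other 5.32% in myeloid markers, whereas the other 2 cells with a *Cox4i2* UMI had 6.79 and 3.01% in marrow stromal markers. Intervals for cells cover counting error only.

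In the oxidase, *Cox5b* and *Cox7c* were also called lower in *Lepr*-lineage plates. *Cox5b* (chr1:36691449-36693681, plus strand), a zinc-binding subunit on the matrix side, had 380, 510 and 851 CPM in *Grem1*-lineage plates (lowest, median and highest) and 226 and 196 CPM in *Lepr*-lineage plates, a log2 fold change of -1.37 (SE 0.33, adjusted p = 0.00492). *Cox7c* (chr13:86044816-86046904, minus strand), a small membrane subunit, had 392, 475 and 602 CPM against 279 and 238 CPM, a log2 fold change of -0.90 (SE 0.26, adjusted p = 0.0155). For both genes every *Lepr*-lineage value lay below the lowest *Grem1*-lineage value. *Cox7a2l* (chr17:83501918-83517330, minus strand), related to subunit VIIa and known for joining respiratory complexes into supercomplexes, had 365, 422 and 556 CPM against 199 and 210 CPM, again without overlap (-1.11, SE 0.28, adjusted p = 0.00808).

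In ATP synthase, 1 F1 gene and 1 Fo gene were called. *Atp5e* (chr2:174461072-174464105, minus strand), the epsilon subunit of the central stalk, had 752, 1012 and 1153 CPM in *Grem1*-lineage plates and 451 and 477 CPM in *Lepr*-lineage plates (-1.09, SE 0.25, adjusted p = 0.00358). The Fo gene was *Atp5g1* (chr11:96068852-96075670, minus strand), with 488, 605 and 858 CPM against 226 and 309 CPM (-1.23, SE 0.30, adjusted p = 0.00582). Neither gene overlapped between the lineages. In all, 7 of the 29 genes did not overlap, while 38.1% of all genes tested did not. The seventh, *Cox6a1*, missed the threshold with 591 to 1167 CPM against 465 and 519 CPM (-0.77, SE 0.30, adjusted p = 0.0676).

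**Figure D2:**
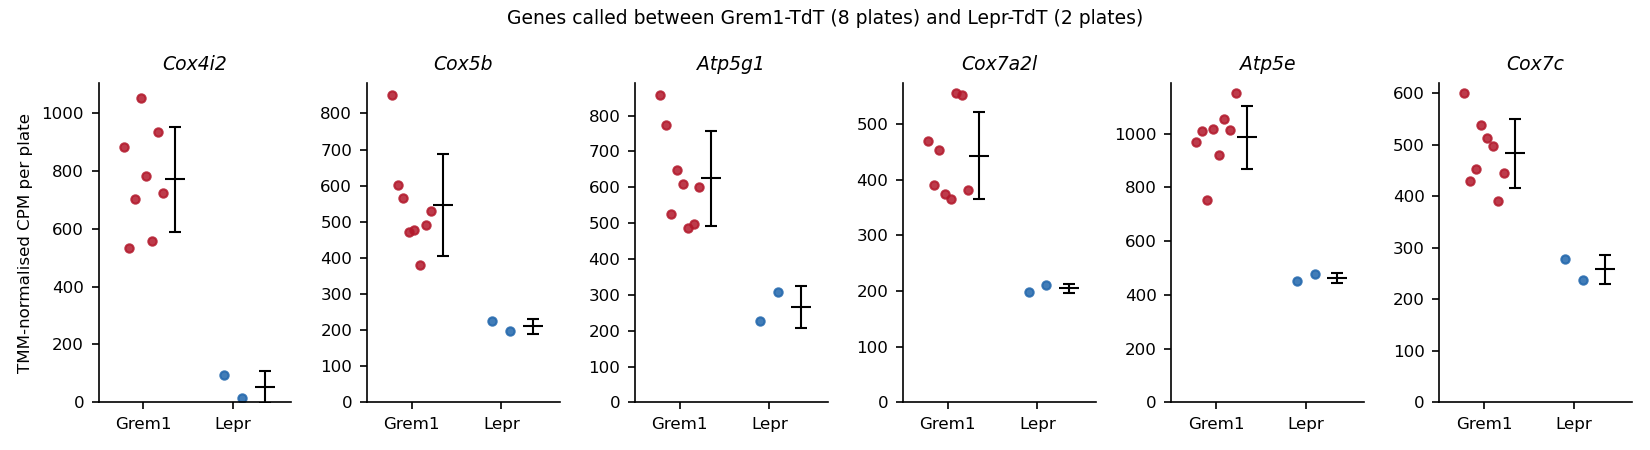
TMM-normalised CPM (vertical axis, linear and from 0, with its own range for each gene) of the 6 genes called between 8 *Grem1-TdT* and 2 *Lepr-TdT* plates. Points are plates and bars are the mean ± SD, cut off at 0 for *Cox4i2*. In each panel both *Lepr-TdT* plates lie below all *Grem1-TdT* plates. Without TMM factors only the call for *Cox4i2* was kept.

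The calls other than *Cox4i2* depended on the scaling. TMM raised the effective depth of the *Lepr*-lineage plates by factors of 1.36 and 1.38, against 0.823 to 1.05 for *Grem1*-lineage plates. Without these factors the median of all genes moved by 0.56 to 0.45 and that of the set to 0.23, and 72.9% of all calls were higher in the *Lepr* lineage in place of 42.0%. In that fit *Cox4i2* was still called lower (-3.25, edgeR adjusted p = 0.000122), but *Atp5d*, *Atp5f1* and *Atp5o* were called higher (0.96, 0.76 and 0.76), where 36.0% of all genes were called, 26.3% higher and 9.78% lower. *Cox5b*, *Cox7c*, *Cox7a2l*, *Atp5e* and *Atp5g1* kept their sign without a call (-0.83, -0.34, -0.54, -0.52 and -0.68). With 2 *Lepr*-lineage plates, each weighs on the calls: without plate 2 those for *Cox5b*, *Cox7a2l* and *Cox7c* were lost (-1.33, -1.20 and -0.85), and without plate 1 that for *Atp5g1* (-1.12). Against articular-like cells alone, *Atp5e* (-0.59) and *Cox7c* (-0.63) were not called, and against *Cnmd*-rich cells alone *Cox7a2l* was not (-0.85). Myeloid markers were higher in the *Lepr* lineage, with 4 of 7 tested genes called, and without the 10 *Lepr*-lineage and 12 *Grem1*-lineage cells rich in myeloid or osteoblast UMIs again 6 genes of the set were called, among them *Cox4i2* at -4.27.

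The other 23 genes tested lay between -0.84 (*Cox5a*, adjusted p = 0.128) and 0.40 (*Atp5d*, adjusted p = 0.315) and did not pass the edgeR test. In this group are the 3 genes of the set with most UMIs. *Cox4i1* (chr8:120668222-120674207, plus strand), the common isoform of subunit IV, had 1087, 1425 and 1932 CPM in *Grem1*-lineage plates and 1089 and 1220 CPM in *Lepr*-lineage plates, and the groups overlapped (-0.33, SE 0.28, adjusted p = 0.382). *Cox7a2* (chr9:79755361-79759878, minus strand), the common isoform of subunit VIIa, had 839, 1075 and 1479 CPM against 730 and 954 CPM (-0.42, SE 0.28, adjusted p = 0.275), where 1 of the *Lepr*-lineage plates was the lowest of all. *Atp5j* (chr16:84827866-84835625, minus strand), coupling factor 6 of the peripheral stalk, had 730, 1004 and 1416 CPM against 797 and 701 CPM (-0.45, SE 0.27, adjusted p = 0.224). The catalytic *Atp5b* had 261 to 968 CPM against 491 and 547 CPM, and *Cox6b1*, which faces the intermembrane space, 784 to 1078 CPM against 876 and 996 CPM. In the set, 21 genes lay below 0 and 8 above, among the latter *Cycs*, cytochrome *c* itself, at 0.04 (SE 0.47).

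**Figure D3:**
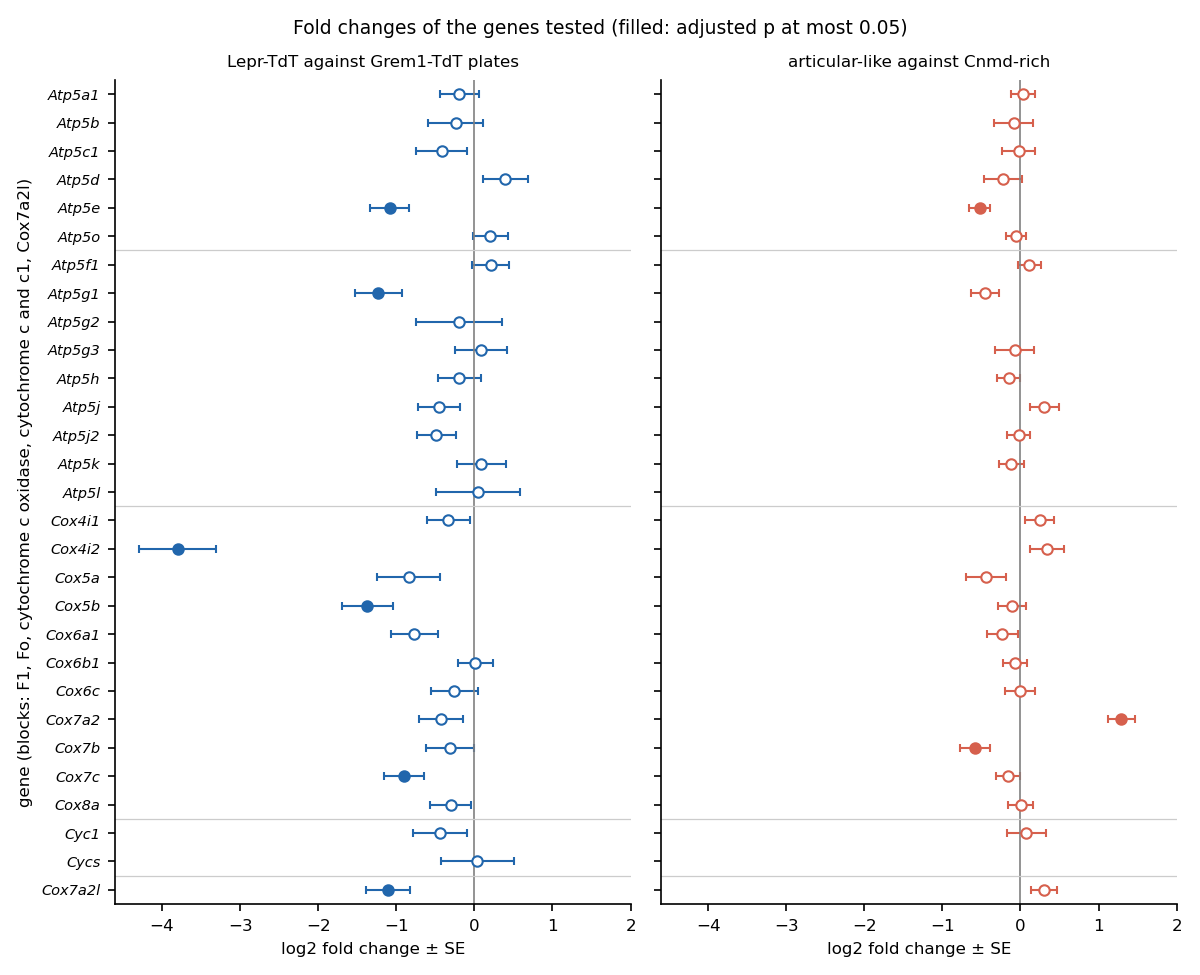
Log2 fold change ± SE (horizontal axis) of each gene tested, for *Lepr-TdT* against *Grem1-TdT* plates (left, 29 genes) and for articular-like against *Cnmd*-rich cells (right, 26 genes), after TMM scaling. Filled points have an adjusted p of at most 0.05, grey lines part F1, Fo, oxidase, cytochrome *c* and *c*1 genes and *Cox7a2l*, and a gene without a point was not tested. On the left, *Cox4i2* at -3.80 stands farthest from 0. On the right *Cox7a2* at 1.29 does. Without TMM factors the left median moves to 0.23 and the right median to -0.43.

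Articular-like and *Cnmd*-rich cells were compared in the same way with a positive log2 fold change meaning higher in articular-like cells. Here 26 of the 37 genes could be tested and 3 were called, 1 higher and 2 lower (edgeR quasi-likelihood test), where 41.3% of the 1075 genes tested were called, 19.7% higher and 21.6% lower. The median log2 fold change was -0.06 over the 26 genes and -0.02 over all genes tested. Its sign over the 26 genes turned between subsets of plates. On plates 1, 2 and 4 alone it was -0.13 (all genes -0.03), and on plates 5 to 9 alone 0.11 (all genes 0.02). *Cnmd*-rich cells were deeper, with a median of 2218.5 UMIs per cell against 1217 UMIs.

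*Cox7a2* was higher in articular-like cells on every plate. Its levels in articular-like cells were 1134, 1731 and 2702 CPM (lowest, median and highest, mean 1843 ± 508, SD, n = 8) and in *Cnmd*-rich cells 559, 734 and 939 CPM (mean 751 ± 125). The lowest articular-like sum, of plate 5, exceeded the highest *Cnmd*-rich sum, and the log2 fold change was 1.29 (SE 0.17, adjusted p = 5.02e-06). It was the 1 gene of the 26 without overlap, and 12.8% of all genes tested did not overlap. The counts were 694 and 434 UMIs. A UMI of *Cox7a2* was seen in 68.8% of articular-like cells (64.1 to 73.3) and 71.1% of *Cnmd*-rich cells (65.3 to 76.4), but in 44.3 and 29.7% after thinning to 529 UMIs per cell, so that the order of the shares turned once depth was equal.

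The remaining calls were lower in articular-like cells. *Atp5e* had 675, 831 and 972 CPM in articular-like cells (lowest, median and highest) and 899, 1210 and 1406 CPM in *Cnmd*-rich cells, lower on 8 of 8 plates although the ranges overlapped (-0.52, SE 0.13, adjusted p = 0.00353). *Cox7b* (chrX:106015700-106022450, plus strand), a small membrane subunit, had 248, 305 and 563 CPM against 373, 467 and 759 CPM (-0.59, SE 0.19, adjusted p = 0.0185). It was lower on 7 of 8 plates, and plate 2 went the other way. The call for *Cox7b* was lost without plate 1, 4 or 7 (-0.49, -0.53 and -0.50).

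**Figure D4:**
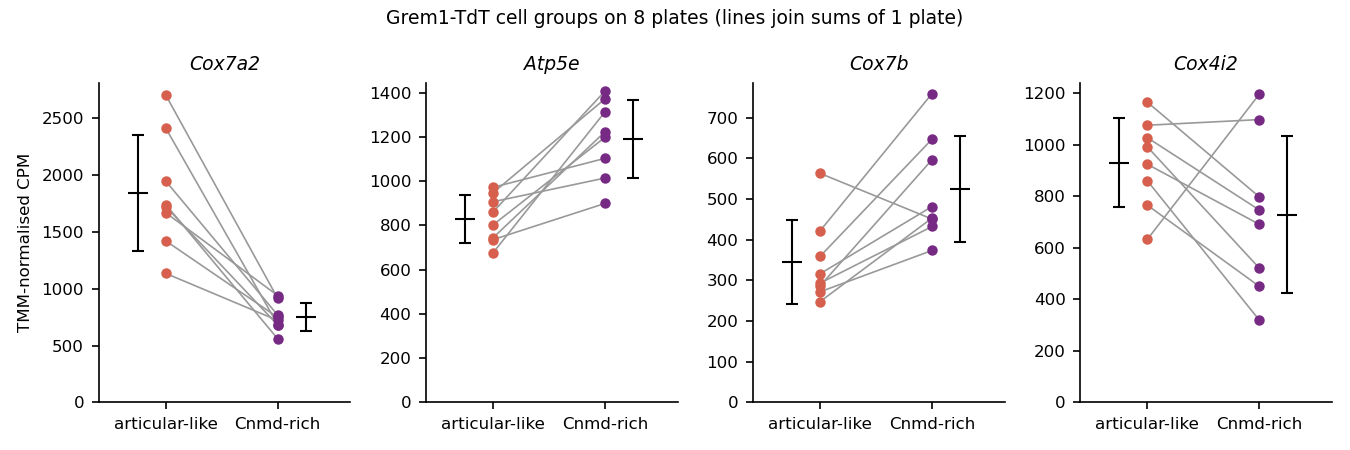
TMM-normalised CPM (vertical axis, from 0, with its own range for each gene) of *Cox7a2*, *Atp5e*, *Cox7b* and *Cox4i2* in articular-like and *Cnmd*-rich *Grem1*-lineage cells. Points are sums of 1 plate, lines join the sums of the same plate, and bars are the mean ± SD over 8 plates. *Cox7a2* falls along every line from articular-like to *Cnmd*-rich, *Atp5e* rises along every line and *Cox7b* along 7 of 8, and *Cox4i2* shows no call. Without TMM factors the directions of the 3 called genes were kept.

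*Cox4i2*, the gene that differed most between the lineages, had 633, 958 and 1165 CPM in articular-like and 320, 719 and 1196 CPM in *Cnmd*-rich cells, with a log2 fold change of 0.34 (SE 0.22, adjusted p = 0.217). The sums were higher in articular-like cells on 6 of 8 plates, and without plate 8 the edgeR test called *Cox4i2* (0.55, adjusted p = 0.0459). *Atp5g1* lay close to the threshold (-0.45, SE 0.18, adjusted p = 0.0542) and was called without plate 7 or plate 9 (-0.50 and -0.57). Likewise *Cox5a* was called without plate 1 (-0.61) and *Cox7a2l* without plate 7 (0.43). *Cox4i1* at 0.25 and *Atp5j* at 0.30 did not pass either, with 1126 to 2840 CPM against 994 to 1853 CPM and 723 to 1668 CPM against 554 to 1415 CPM. Here too the scaling mattered: without TMM factors the median of all genes was -0.38 and that of the set -0.43, and 10 genes were called, *Cox7a2* higher (0.93) and 9 lower, where 49.9% of all genes tested were called and 38.7% were called lower. Of the calls over all genes, 22.4% were then higher in articular-like cells in place of 47.7%. The TMM factors were 0.769 to 1.01 for articular-like and 1.03 to 1.32 for *Cnmd*-rich sums.

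Within the isoform sets, the share of each gene does not depend on scaling. *Cox4i2* made 27.2, 32.6 and 46.3% of the UMIs of the subunit IV pair in *Grem1*-lineage plates (lowest, median and highest, mean 34.7 ± 7.0%, SD, n = 8), from 205 to 376 UMIs per plate. In the *Lepr*-lineage plates it made 7 of 89 UMIs (7.87%) and 1 of 88 (1.14%). Pooled, the shares were 34.6% (32.6 to 36.6) and 4.52% (1.97 to 8.71). The plates did not overlap. In articular-like and *Cnmd*-rich cells it made 36.0 ± 5.7% and 33.0 ± 11.9% of the pair (SD, n = 8).

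The genes of the c subunit were also used in other proportions. *Atp5g1* made 53.3, 61.2 and 66.7% of their UMIs in *Grem1*-lineage plates (lowest, median and highest) and 43.6 and 36.7% in *Lepr*-lineage plates, without overlap. *Atp5g3* made 31.1 ± 3.9% (SD, n = 8) against 48.7 and 51.7%, likewise without overlap, and *Atp5g2* 7.6 ± 2.5% against 7.7 and 11.7%. The *Atp5g2* share is uncertain. As an alternative, each gene was given, in each cell, the highest count among itself and its near-identical copies. The *Atp5g2* share then became 20.6 ± 3.4% (SD, n = 8) against 15.9 and 17.9%, with the order turned. With 39 and 60 UMIs of these genes, the *Lepr*-lineage plates give the least precise shares. In level, *Atp5g2* had 19.5, 89.0 and 97.1 CPM in *Grem1*-lineage plates and 39.8 and 98.2 CPM in *Lepr*-lineage plates (-0.20, SE 0.55, edgeR adjusted p = 0.816). *Atp5g3* had 178 to 492 CPM against 252 and 435 CPM (0.09, SE 0.34).

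**Figure D5:**
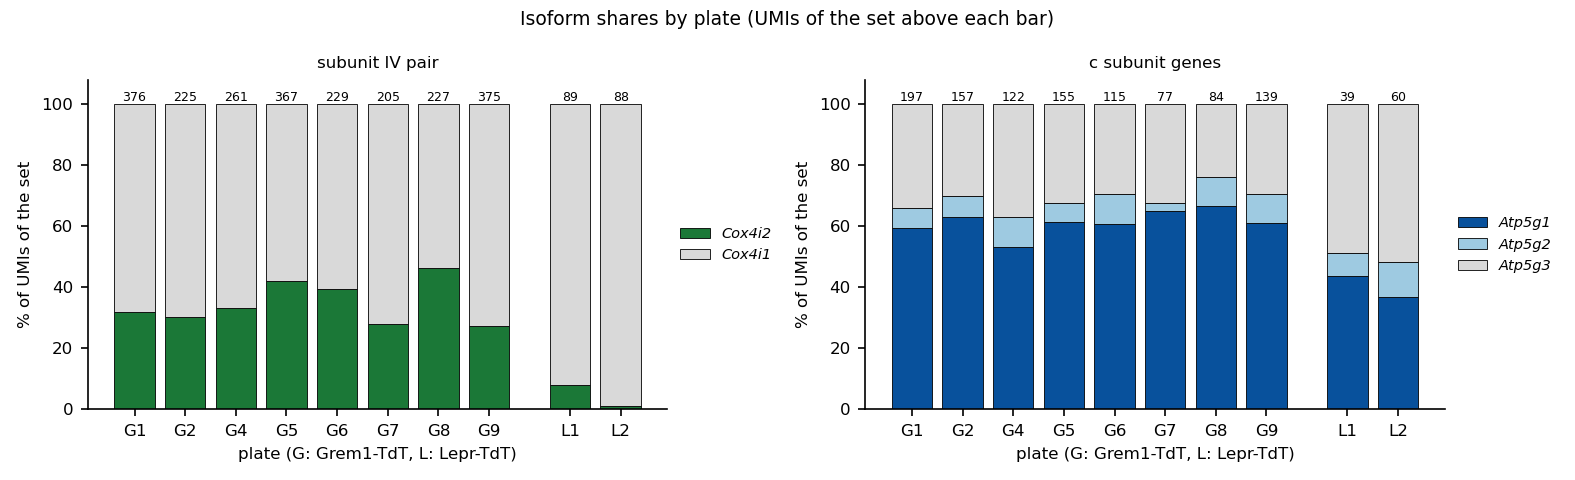
Share of each gene among the UMIs of its isoform set (vertical axis, percent) for 8 *Grem1-TdT* (G) and 2 *Lepr-TdT* (L) plates, for the subunit IV pair (left) and the c subunit genes (right). The UMIs of the set stand above each bar. *Cox4i2* makes 27.2 to 46.3% in G plates against 7.87 and 1.14% in L plates, and *Atp5g1* 53.3 to 66.7% against 43.6 and 36.7%.

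Of the muscle and testis forms little was seen. *Cox6a2*, *Cox8b*, *Cox7b2* and *Cox8c* had no UMI in any kept cell, which allows a share of up to 1.88% of *Lepr*-lineage and 0.439% of *Grem1*-lineage cells with a UMI. *Cox7a1* had 13 UMIs of 1141 of its pair in *Grem1*-lineage cells (1.14%), at 4 UMIs on each of plates 2 and 5, 2 on plate 6, 1 on each of plates 4, 7 and 8 and 0 on plates 1 and 9. It had 0 of 123 in *Lepr*-lineage cells. *Cox6b2* had 5 of 945 and 4 of 141 UMIs of its pair. Striated muscle markers summed to at most 0.0244% of UMIs in a *Grem1*-lineage plate and 0.0155% in a *Lepr*-lineage plate. *Atp5s* with 42 UMIs and *Atp5sl* with 25 UMIs were also too low to be tested, and in the comparison of cell groups *Atp5l*, *Atp5g2* and *Cycs* were added to these. Paired isoforms shared runs of at most 14 bases (*Cox4i1* with *Cox4i2*, 14, and *Cox7a1* with *Cox7a2*, 12).

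Many of these genes have near-identical processed copies elsewhere in the genome, and their reads could be counted at either. For 6 genes a copy carried UMIs that were almost all found, cell by cell, at the parent gene too: *Gm10039* for *Atp5g1* (562 of 574 UMIs), *Gm11273* for *Cox5b* (367 of 373), *Gm11966* for *Atp5j* (850 of 871), *Gm5436* for *Atp5o* (501 of 510), *Gm10250* for *Atp5h* (501 of 525) and *Gm12231* for *Atp5f1* (188 of 188). Levels of these genes are therefore uncertain. So are those of *Cox7c*, *Atp5l* and *Cycs*, whose copies held 826, 410 and 254 UMIs where the genes held 527, 69 and 100. Between the lineages the *Cox7c* copies *Gm12338* and *Gm10012* lay at -0.74 and 0.69, against -0.90 for *Cox7c*. *Gm10175*, a copy of *Atp5g2*, held 257 UMIs where *Atp5g2* held 90, and 81 were in common. No copy of at least 58 bases was found for *Cox4i2*, *Cox7a2*, *Cox7b* and *Atp5e*. *Cox4i1*, *Atp5j* and *Cox5a* overlap exons of *Emc8*, *Gabpa* and *Gm26631* on the other strand. Such overlaps with other annotated genes were also found for *Atp5a1*, *Atp5d*, *Atp5f1*, *Atp5l*, *Atp5o*, *Cox6a2* and *Cox6c*. Each gene was then counted with its copies by taking, in each cell, the highest count among them and not their sum. Again 6 genes were called between the lineages, all lower in the *Lepr* lineage: *Cox4i2* at -3.77, *Cox5b* at -1.26, *Atp5g1* at -1.11, *Cox7a2l* at -1.07, *Atp5e* at -1.05 and *Cox7c* at -0.94. Between cell groups *Atp5g2* (-0.72, edgeR adjusted p = 0.00474) and *Cycs* (0.56, edgeR adjusted p = 0.0349) joined the calls. The share of *Atp5g1* among c subunit UMIs became 52.9 ± 3.1% (SD, n = 8) against 40.9 and 35.8%, still without overlap.

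Other genes of energy metabolism and proton transport were taken from lists. Their counts stand beside 29.0% of all genes called between the lineages, 12.2% higher and 16.8% lower in the *Lepr* lineage. Between the lineages, 8 of 23 genes for assembly and inhibition of the complexes could be tested and 0 were called by edgeR or DESeq2 (1 at an unadjusted edgeR p under 0.05), with a median log2 fold change of -0.23. Of 5 tested genes of the tricarboxylic acid cycle 0 were called by either tool (1 at an unadjusted p under 0.05, median -0.23). Of 9 tested genes of fatty acid oxidation 1 was higher in the *Lepr* lineage, *Etfb*, a subunit of the electron transfer flavoprotein (1.23, SE 0.25, adjusted p = 0.00189), with a median of 0.20. Of 3 tested regulators of mitochondrial genes 0 were called by either tool (1 at an unadjusted p under 0.05, median 0.85). Of 14 tested genes of the vacuolar proton pump, *Atp6v0e2* was higher in the *Lepr* lineage (1.34, adjusted p = 0.0225) and *Atp6ap1* (-1.61, adjusted p = 0.00376) and *Atp6v0e* (-1.001, adjusted p = 0.00828) lower, with a median of -0.12. Of 7 genes of translation elongation, 4 were lower in the *Lepr* lineage and the median was -1.47, with *Eef1a1* at -1.69, *Eef1g* at -1.62 and *Eef2* at -1.47.

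Between cell groups, where 41.3% of all genes were called, 19.7% higher and 21.6% lower in articular-like cells, *Chchd2*, a mitochondrial protein linked to the oxidase, was higher in articular-like cells (0.48, SE 0.13, adjusted p = 0.00579), the 1 call among 5 tested assembly genes (median 0.09). Of 8 tested vacuolar pump genes 3 were higher, *Atp6v1e1* (1.28, adjusted p = 0.00373), *Atp6ap1* (0.61, adjusted p = 0.0150) and *Atp6v0e* (0.44, adjusted p = 0.0197), with a median of 0.34. Of 6 tested translation elongation genes 5 were lower in articular-like cells with a median of -0.48, among them *Fau* (-0.62), *Eef1g* (-0.49) and *Eef1b2* (-0.48). Of 2 tested genes of fatty acid oxidation 0 were called by edgeR or DESeq2 or had an unadjusted p under 0.05 (median 0.01), and no gene of the tricarboxylic acid cycle or of the regulators had enough UMIs.

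Promoters of nuclear respiratory genes are known for sites of NRF1, GABP and YY1. RefSeq promoters (GRCm38.p6, from 250 bases before to 50 after a start) were matched for 30 genes of the set and searched on both strands. The NRF1 core CGCANGCG was present in 12 of 30 (40.0%) and in 12.5% of promoters of 17491 genes. The ETS motif CCGGAAG, bound by GABP, was present in 8 of 30 (26.7%) against 12.9%, and the YY1 motif AANATGGCG in 4 of 30 (13.3%) against 3.64%. The windows below, with the motif in capitals and written along the gene's strand, show *Atp5e*, called in both comparisons, at chr2:174464185-174464214 (minus strand) with the ETS motif in reverse, *Cox6a1*, which did not overlap between the lineages, at chr5:115349101-115349130 (minus strand) with the NRF1 core, and *Cycs*, with a log2 fold change of 0.04 between the lineages, at chr6:50566612-50566641 (minus strand) with the same core.
Atp5e: tacggccacagCTTCCGGtagccgctcggc
Cox6a1: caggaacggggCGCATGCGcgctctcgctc
Cycs: ccatgctagctCGCATGCGcgcgcacaaac
Among the genes called, *Atp5e* held an ETS motif, and none of *Cox5b*, *Atp5g1*, *Cox7a2l*, *Cox7c*, *Cox7a2* and *Cox7b* held one of the 3 motifs in this window, which says no more than that these letters are not there. *Cox4i2* was not searched.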

How the data were processed

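The deposited values are UMI counts per gene and cell, whole numbers made by the authors without normalisation. The processing notes name UMI-tools, STAR, featureCounts, SAMtools, Seurat and mm10 without versions. Only the 29183 genes listed for both lineages were used, and 1 incomplete gene was left out. Genes and lists were chosen with earlier results of these data known.

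UMIs of kept cells were summed per plate, or per plate and cell group (at least 10 cells), and tested with edgeR 4.0.16 in R 4.3.3 (filterByExpr, TMM factors, quasi-likelihood test, p-values adjusted over all genes tested after Benjamini and Hochberg, threshold 0.05), with DESeq2 1.42.0 as an alternative. Standard errors are the log2 fold change over the root of the F statistic. The plate is the replicate. Summed shares and isoform shares have no test. Shares of cells have 95% Clopper-Pearson intervals, a count of 0 a limit of 3 counts, and depth was made equal by thinning at random to the 10% quantile of depth (529 between lineages, 85 cells left out, and 796 between cell groups, 68 cells left out).

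Genes named with values by plate are the 5 with the largest fold change in each direction among those called, the 3 with most UMIs, and minor isoforms with at least 10 UMIs. *Cox7c*, *Cox6a1* and the further genes named were added after their values were seen. Of each list the counts called are given with up to 3 genes. Of marker lists not given in the report, articular chondrocyte markers were called in 6 of 7 tested genes between the lineages (lower in the *Lepr* lineage) and in 6 of 6 between cell groups, where 3 of them made the split. *Cnmd* and *Epyc* were called lower in the *Lepr* lineage, and all 6 marrow stromal markers higher. Of osteoblast markers *Alpl* was lower in the *Lepr* lineage (1 of 7), and between cell groups *Col1a2* was higher and *Alpl* lower in articular-like cells. They summed to 0.102 to 3.27% of UMIs in *Grem1*-lineage and to 0.355 and 1.79% in *Lepr*-lineage plates. The 1 striated muscle gene tested was not called by edgeR (nor by DESeq2, or at an unadjusted p under 0.05), and endothelial and erythroid markers, at most 0.0100% of UMIs in a plate, were too low to be tested.

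Positions are of GENCODE M21 on GRCm38, copies are stretches of at least 58 bases with at least 97% identity between transcripts, and promoters are RefSeq's. To check pairing, deviations from group means were correlated across genes. For cell groups of the same plate the mean correlation was 0.301 (0.187 to 0.454, 8 of 8 plates exceeding 0.1), against -0.043 between plates (-0.359 to 0.372). The sums are thus paired by their plate. Different plates among 1, 2 and 4 correlated at 0.0844 to 0.372, so plates may not be independent of each other. The main fit between cell groups left this pairing out, and the plate as a block was an alternative. The fits were tested on simulated data: of 200 genes changed by 2 on the log2 scale, edgeR recovered 64.5% with 3.73% false calls between lineages (2944 genes) and 97.5% with 4.41% between cell groups (1075 genes), and DESeq2 55% with 1.79% and 100% with 6.54%. The simulated counts were drawn independently around 1 common profile, with changes up or down at random and no effect shared by the sums of a plate. The false calls therefore do not measure errors from the scaling or the pairing of these data. Doublets were not called, since cells were sorted 1 per well. Protein sequences were not used here.

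The alternatives were DESeq2 and its size factors, no filter on low counts, other cell filters, thinned cells, subsets of cells and plates, the 20 most abundant genes or the 4 splitting genes left out, the plate as a block, and each plate left out. After the data were seen, library size alone, cells rich in markers left out, and genes counted with their copies were added. In the last of these each gene took, in each cell, the highest count among itself and its copies, and the copies were left out.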

Additional observations from a re-analysis of the deposited data

Results flagged for a closer look

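Of 96 sets of 8 plates examined, 10 had 1 plate far from the others by Dixon's test, which chance gives in about 1 in 20. The sets share counts, since lineage sums contain the cell group sums and isoform shares reuse the counts behind CPM. The flags are therefore not independent, and their number cannot be set against that rate. In *Grem1*-lineage plates these were *Atp5d* on plate 4 (162 CPM, others 252 to 333), *Atp5g2* on plate 7 (19.5 CPM, others 68.2 to 97.1, and 2.60% of c subunit UMIs, others 6.45 to 9.84%), *Atp5k* on plate 2 (1134 CPM, others 591 to 832) and *Cox5b* on plate 1 (851 CPM, others 380 to 602). In *Cnmd*-rich cells they were *Atp5k* on plate 2 (1339 CPM, others 614 to 953) and *Cox5b* on plate 1 (1016 CPM, others 426 to 701). In articular-like cells they were *Cox5a* on plate 1 (623 CPM, others 154 to 316), *Cox6b1* on plate 8 (542 CPM, others 923 to 1213) and *Atp5g1* on plate 9 (74.4% of c subunit UMIs, others 52.1 to 61.4%).

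Some values lie outside the comparisons. Of mitochondrially encoded genes, listed for *Lepr*-lineage cells only, the oxidase gene *mt-Co1* had 67 and 62 UMIs on plates 1 and 2, above the limit of 3 counts. The other oxidase genes *mt-Co2* (1 and 0) and *mt-Co3* (2 and 0) and the ATP synthase genes *mt-Atp6* and *mt-Atp8* (0 on both plates) did not pass it. *mt-Cytb*, which belongs to complex III and not to these complexes, had 306 and 443 UMIs. Of the symbols left out by name, *Atp5k-ps2* had 431, *Atp5l-ps1* 128, *Atp5l-ps2* 302 and *Atp5l2-ps* 105 UMIs in kept cells.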

How the results depend on the processing

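*Cox4i2* was called lower in the *Lepr* lineage under all 26 alternatives run (log2 fold change -5.77 to -2.88, adjusted p up to 0.00727), and *Cox7a2* higher in articular-like cells under all 22 (0.93 to 1.43, adjusted p up to 0.00183). Of the alternatives, *Cox5b* lost its call under 2, *Atp5g1* under 3, *Atp5e* under 4, *Cox7a2l* under 6 and *Cox7c* under 7 between the lineages, and between cell groups *Atp5e* under 2 and *Cox7b* under 5, none with a change of sign. Between the lineages 3 genes of the set were called with thinned cells (374 of 1126 genes in all, in place of 853), and 3 to 7 with 1 plate left out (529 to 850 genes), the lowest without *Lepr*-lineage plate 2. Between cell groups 1 gene was called on plates 1, 2 and 4 alone (239 genes in place of 444), 10 without TMM factors, 5 with genes counted with their copies, and 2 to 4 with 1 plate left out. Over all genes, 170 were called with thinned cells and 710 with no filter on low counts. The cause of these changes was not tested, except that thinned sums and fewer plates hold fewer counts.

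With the plate as a replicate block, the same 3 genes were called between cell groups (515 genes in all). Between the lineages the numbers do not pair the plates, whose correlations were 0.00110 and 0.0752, and the block on plates 1 and 2 gave 3 calls in the set (489 genes) against 4 without it (451 genes).

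The summed share in *Lepr*-lineage less *Grem1*-lineage plates, 0.0336 percentage points as reported, was -0.438 with the 20 most abundant genes left out and -0.858 with all genes listed for *Lepr*-lineage cells in their denominator alone, which is no lineage difference since the *Grem1*-lineage share stays over the shared genes. It ranged from -0.0655 to 0.133 with 1 plate left out. In articular-like less *Cnmd*-rich cells it was -0.282 as reported, -0.0644 with the 20 genes left out, and -0.304 to -0.236 with 1 plate left out. The difference in the *Atp5g1* share was -21.2 percentage points as reported, -26.6 with thinned cells, -14.6 with copies, and -24.7 to -17.7 with 1 plate left out. The difference in cells with a *Cox4i2* UMI fell from -44.1 to -18.8 percentage points with thinned cells, and that for *Cox7a2* between cell groups turned from -2.27 to 14.6.

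Depth limits the *Lepr*-lineage values most: 1870 UMIs of the set over 2 plates, and 10 or fewer for *Cox4i2*, *Atp5g2* and *Atp5l*.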
